A study of Mus musculus with 4 samples.

Results

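The EGR, NR4A and KLF immediate early factors are a set of 10 transcription factor genes, chosen by gene symbol: Egr1, Egr2, Egr3, Nr4a1, Nr4a2, Nr4a3, Klf2, Klf4, Klf6 and Srf. They were followed on every probe the array carries for them, which gave 13 of the 40628 gene probes, for 10 of the 29353 genes on the array. Gene expression was read on 4 one-colour arrays from C3H10T1/2 cells, a mouse embryo fibroblast line that is widely used to score chemical transformation. All 4 samples had been transformed in the same way: 3MC (3-methylcholanthrene, a polycyclic hydrocarbon carcinogen) at 2.5 µg/ml for 2 days, normal medium for 4 days, TPA (a phorbol ester tumour promoter) at 100 ng/ml over 2 weeks, and normal medium for 4 weeks. The control group, with 2 arrays, was the transformed cells, and the phorone group, with 2 arrays, was the transformed cells exposed to phorone (a ketone used to deplete glutathione) at 2 mM. How long phorone was left on, and in which vehicle, is not given in the sources used here. Neither untransformed cells nor phorone on untransformed cells was compared here. No label states whether replicates were separate cultures, so the p-values reflect only how far these samples spread, and that spread may be technical. The 4 arrays share 1 slide, with the control arrays in one row and the phorone arrays in the other, so slide row and treatment cannot be told apart.

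Immediate early genes are switched on by growth factors, serum or stress without new protein synthesis, because the factors that turn them on are already in the cell. Srf, the serum response factor, binds the CArG box in many of their promoters together with ternary complex factors of the Elk family, which answer to MAP kinase, or with the MRTF coactivators, which answer to actin. The EGR proteins are zinc finger factors that bind GC-rich sites, the NR4A proteins are orphan nuclear receptors that act without a known natural ligand, and the KLF proteins are zinc finger factors that bind GC-rich and CACCC sites. In fibroblasts these genes rise quickly and briefly after serum, and the EGR proteins induce their own co-repressor Nab2.

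Across the set the transcripts that moved after phorone were lower, led by Egr1 and Nr4a1. Of the 13 probes, 11 were well above background (the scanner software's own call) on all 4 arrays and were tested, for 8 genes, and the single probes of Egr3 and Nr4a3 were not well above background on any array. Of the 11 probes, 7 were lower with phorone by limma (adjusted p below 0.05), which was 63.6% of them against 20.3% of all 24207 gene probes tested. None of the 11 was higher, against 25.5% of all probes, and 4 were not called. The members were chosen with earlier results of these data known, so these shares are descriptive only. The 7 lower probes belong to 6 genes: Egr1, Egr2, Nr4a1, Klf2, Klf4 and Srf. The median difference of the 11 probes was -0.68 on the log2 scale, against 0.11 for all probes tested. In bulk RNA, fewer cells of a type and less RNA per cell cannot be told apart.

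**Figure D1:**
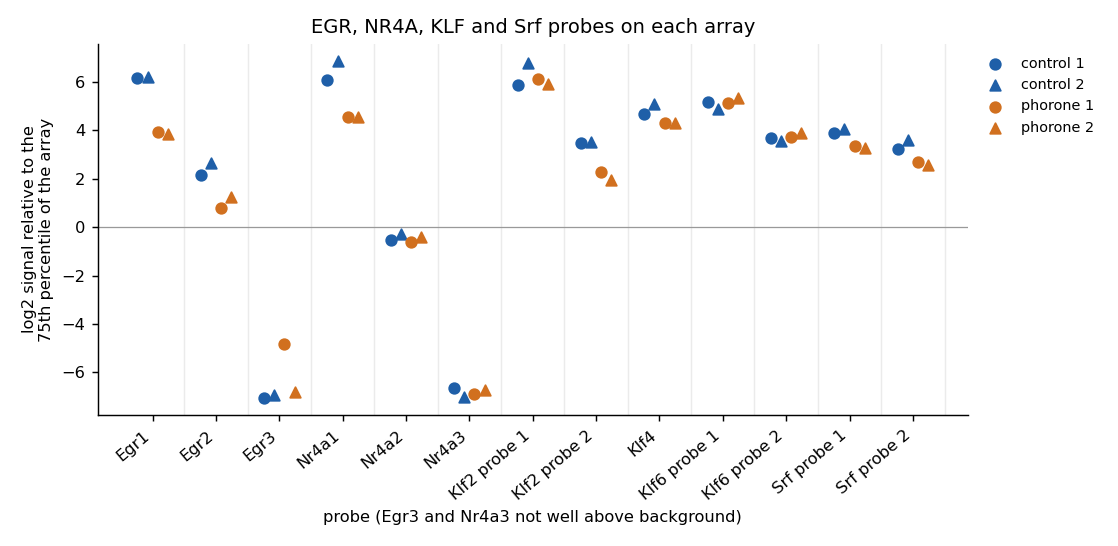
Level of each of the 13 probes on each of the 4 arrays, in log2 units relative to the array's 75th percentile (vertical axis), with 1 column of points per probe and 1 marker per array. The Egr1 and Nr4a1 probes show both phorone arrays far below both control arrays, and the Egr3 and Nr4a3 probes lie at the bottom, not well above background.

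The array totals bear on all of these values. Levels are log2 signals relative to the 75th percentile of the array, which was 701 and 747 for control and 563 and 572 for phorone, and 51.1% to 52.7% of probes were well above background on each array. The spike-in RNA controls read 4741 and 7923 in control and 3764 and 3363 with phorone, so they differed by 0.74 on the log2 scale between the control arrays alone. Scaling to the spike-ins in place of the 75th percentile would raise every phorone difference by 0.43 and move the median of all probes from 0.11 to 0.54, and the split of calls from 44.4% lower to 26.6% lower. With that scaling 2 of the 11 probes stayed lower, Egr1 and Nr4a1, and none was higher. Of all 24207 gene probes 1611 were then lower and 4453 higher. All 8 fibroblast markers tested for were well above background on all 4 arrays, and their summed level was 1510 and 1570 in control and 668 and 701 with phorone, with 5 of the 8 lower by limma. Of 14 markers of epithelial, endothelial and haematopoietic cells, 9 were well above background on no array, among them Ptprc, Itgam, Adgre1, Pecam1 and Cdh5. The epithelial marker Krt8 was well above background on all 4 arrays and was not called by limma (0.08, adjusted p = 0.770). Epcam, also epithelial, was well above background on 1 control array only. By limma the macrophage marker Cd68 rose by 1.26 (adjusted p = 0.00936). Cd14, which makes up most of the summed haematopoietic level, was not called (0.13, adjusted p = 0.528). The endothelial marker Tek was called lower and was not well above background with phorone. The summed haematopoietic level was 3.79 and 4.62 in control and 4.83 and 4.88 with phorone, the epithelial 0.163 and 0.162 against 0.159 and 0.17, and the endothelial 0.0962 and 0.104 against 0.0316 and 0.054. Their part in the results below was not tested.

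Promoter sequences were searched for motifs that the factors of the set are known to bind, and also for the cyclic AMP element and its core. The cyclic AMP motifs are not sites of the set's own factors. They are the 250 bases before to 50 bases after each start in the RefSeq table (GRCm38.p6), in which 8 of the 10 genes were found, with 12 promoters; Egr1 and Egr3 were not matched. Both strands were searched for 6 motifs, and an absence says only that those letters are not in the window. The CArG box (CC, 6 bases that are A or T, GG) lies in 1.63% of all 32851 promoters, the EGR site GCGTGGGCG or GCGGGGGCG in 3.47%, the cyclic AMP core TGACG (also found inside the full element TGACGTCA, itself in 1.79%) in 20.8%, the NR4A site AAAGGTCA in 1.51% and the KLF core CACCC in 57.5%. None of the 12 promoters held the NR4A site. In each printed sequence capitals mark the CArG boxes, EGR sites or cyclic AMP cores named with that gene, and KLF cores are not marked. In the Nr4a3 stretch a KLF core overlaps a cyclic AMP core, so its last bases are in capitals. A match describes letters and is not a proven site.

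Egr1, an early growth response factor that drives growth factor and matrix genes, fell furthest of the members. Its levels were 6.16 and 6.21 in control and 3.95 and 3.86 with phorone (log2, relative to the 75th percentile), from scanner signals of 49970, 55130, 8686 and 8296. The phorone arrays sat well apart from the control arrays, and the arrays within each group lay close together. The difference was -2.28 (SE 0.12, 95% confidence interval -2.60 to -1.96, adjusted p = 0.000553), a 4.85-fold lower level. Ordered from the most negative difference, it stood at place 859 of the 24207 probes, within the first 3.55%.

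Egr2, which acts in nerve myelination and in immune cells, was lower too. Its levels were 2.17 and 2.64 in control and 0.81 and 1.24 with phorone, without overlap between the groups. The difference was -1.38 (SE 0.23, 95% confidence interval -1.98 to -0.78, adjusted p = 0.00861), 2.60-fold lower. With spike-in scaling the difference was -0.95 and the call was lost (adjusted p = 0.108). A CArG box lies in 4 of the 5 Egr2 promoters of the table, but promoters 3, 4 and 5 overlap and hold the same box. The boxes of promoters 2 and 3 are shown here, at chr10:67537484-67537513 and chr10:67537787-67537816, both on the + strand.
Egr2 promoter 2: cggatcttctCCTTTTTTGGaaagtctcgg
Egr2 promoter 3: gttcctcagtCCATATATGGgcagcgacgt

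Egr3, which acts beside Egr2 in muscle spindles and immune cells, gave signals of 5.22 and 6.03 in control and 20.0 and 5.08 with phorone. None of these was well above background, so no level or difference is given for it.

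Nr4a1, also called Nur77, an orphan receptor linked to cell death and metabolism, showed the next deepest fall. Its levels were 6.10 and 6.87 in control and 4.54 and 4.54 with phorone, from signals of 48050, 87310, 13130 and 13330. The control arrays differed from each other by 0.77, while the phorone arrays were level and both lay below. The difference was -1.94 (SE 0.27, 95% confidence interval -2.63 to -1.25, adjusted p = 0.00506), 3.84-fold lower. Egr1 and Nr4a1 kept their call in all 15 alternatives to the processing.

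Nr4a2, known for its part in dopamine neurons, did not pass the test. Its levels of -0.53 and -0.27 in control and -0.61 and -0.42 with phorone overlapped, and the difference was -0.11 (SE 0.16, 95% confidence interval -0.52 to 0.29, adjusted p = 0.585). Its sign turned with spike-in scaling (0.32) and without control replicate 2 (0.016). Nr4a3, with levels of -6.65 and -7.02 in control and -6.89 and -6.75 with phorone, was not well above background on any array. The promoters of all 3 NR4A genes hold 4 copies of the cyclic AMP core, and Nr4a1 also holds an EGR site. The stretches shown hold only some of the copies in each promoter. They are chr15:101266771-101266815 on the + strand for Nr4a1, chr2:57124104-57124153 on the - strand for Nr4a2 and chr4:48045069-48045109 on the + strand for Nr4a3.
Nr4a1: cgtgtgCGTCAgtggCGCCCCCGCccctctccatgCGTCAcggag
Nr4a2: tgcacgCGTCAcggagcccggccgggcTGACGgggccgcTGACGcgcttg
Nr4a3: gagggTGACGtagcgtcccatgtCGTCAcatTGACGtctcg

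Among the KLF genes, Klf2, which keeps endothelial cells and T cells quiescent, gave different answers on its 2 probes. On probe 2 its levels were 3.48 and 3.53 in control and 2.29 and 1.95 with phorone, with no overlap, and the difference was -1.38 (SE 0.16, 95% confidence interval -1.79 to -0.97, adjusted p = 0.00322), 2.60-fold lower. On probe 1 the levels were 5.87 and 6.78 in control and 6.13 and 5.91 with phorone. These overlapped, the control arrays differed by 0.92, and the difference was -0.31 (SE 0.32, 95% confidence interval -1.13 to 0.51, adjusted p = 0.463). Without control replicate 1 it was -0.77 and called lower (adjusted p = 0.0357), without control replicate 2 it was 0.15, and with spike-in scaling it was 0.13. The probes are 60 bases long, share no stretch over 6 bases, and hold 78.3% (probe 1) and 43.3% (probe 2) G and C. With spike-in scaling probe 2 stood at -0.94 and was not called (adjusted p = 0.109).

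Klf4, a reprogramming factor that restrains growth in many epithelia, was lower by less. Its levels were 4.69 and 5.10 in control and 4.31 and 4.32 with phorone, without overlap. The difference was -0.58 (SE 0.18, 95% confidence interval -1.03 to -0.13, adjusted p = 0.0471), 1.49-fold lower. The call was lost in 7 of 15 alternatives, among them without control replicate 2 (-0.38, adjusted p = 0.0983), without phorone replicate 1 (adjusted p = 0.148), without phorone replicate 2 (adjusted p = 0.156) and spike-in scaling (-0.15, adjusted p = 0.827).

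Klf6, a ubiquitous KLF factor induced by injury, did not pass the test on either probe. Probe 1 read 5.18 and 4.90 in control and 5.13 and 5.35 with phorone, which overlapped, a difference of 0.20 (SE 0.16, 95% confidence interval -0.21 to 0.62, adjusted p = 0.348). Probe 2 read 3.66 and 3.55 in control and 3.73 and 3.87 with phorone, which did not overlap, a difference of 0.19 (SE 0.13, 95% confidence interval -0.15 to 0.54, adjusted p = 0.283). The Klf2 and Klf4 promoters hold an EGR site, shown from chr8:72318856-72318878 on the + strand and chr4:55532654-55532676 on the - strand.
Klf2: cccggccGCGGGGGCGgggcttg
Klf4: cctccctCGCCCCCGCccccacg

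Srf itself, the factor through which many of these genes are induced, was lower on both of its probes. Probe 1 read 3.90 and 4.07 in control and 3.36 and 3.25 with phorone, and the difference was -0.68 (SE 0.14, 95% confidence interval -1.02 to -0.33, adjusted p = 0.0139), 1.60-fold lower. Probe 2 read 3.25 and 3.59 in control and 2.69 and 2.56 with phorone, and the difference was -0.79 (SE 0.17, 95% confidence interval -1.22 to -0.37, adjusted p = 0.0160), 1.73-fold lower. The groups did not overlap on either probe, and the probes share no stretch over 5 bases. Probe 2 is printed in 8 spots, whose SD within an array was 0.0212 to 0.0548, a measure of the array's own noise and not of the spread between samples. The call of probe 1 was lost without phorone replicate 1 (-0.73, adjusted p = 0.0549) and without phorone replicate 2 (-0.62, adjusted p = 0.0940), that of probe 2 without phorone replicate 2 (-0.73, adjusted p = 0.0826) and without the filter on dim probes (adjusted p = 0.0563), and both with spike-in scaling (-0.24 and -0.36). The Srf promoter at chr17:46556203-46556272 on the - strand holds a pair of CArG boxes and an EGR site.
Srf: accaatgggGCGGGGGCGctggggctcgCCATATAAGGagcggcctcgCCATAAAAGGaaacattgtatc

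**Figure D2:**
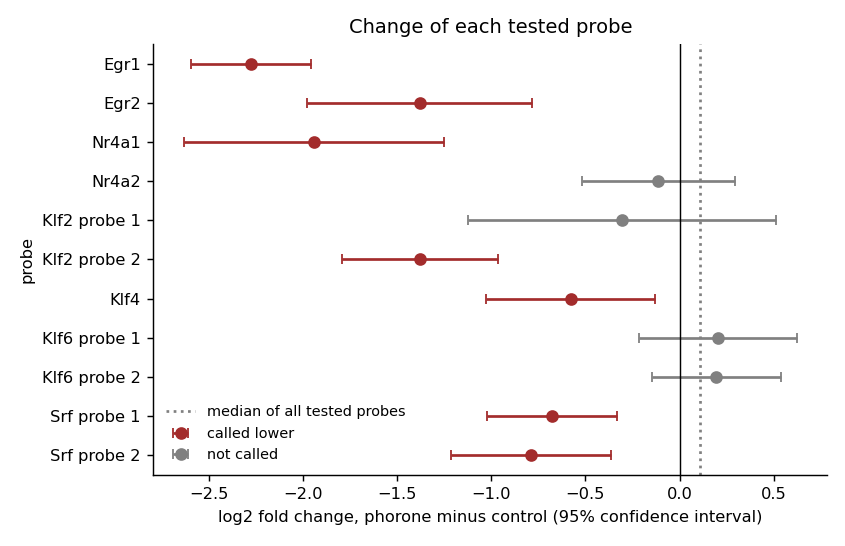
Phorone minus control difference of each tested probe (horizontal axis, log2), with its 95% confidence interval as a bar. The intervals of Egr1 and Nr4a1 lie farthest below 0, and those of Nr4a2, Klf2 probe 1 and both Klf6 probes cross it.

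Of the 11 tested probes 7, the same ones that were called lower, had both phorone arrays below both control arrays, an arrangement seen for 32.9% of all tested probes. The control arrays also differed from each other in the set: 9 of the 11 probes were higher on control replicate 2 than on control replicate 1, with a median difference of 0.26, against 54.5% of all tested probes and a median of 0.03.

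**Figure D3:**
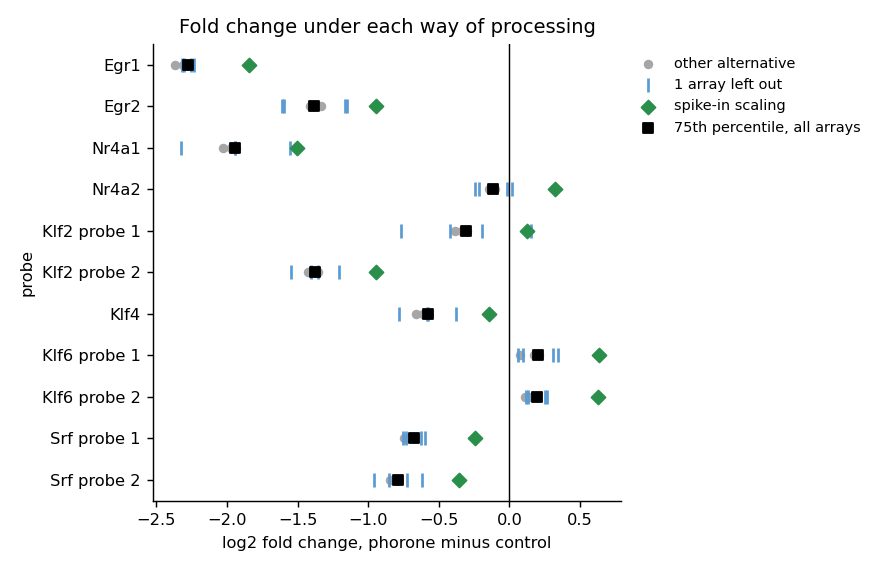
Phorone minus control difference of each tested probe (log2) under the reported processing and each alternative. Egr1 runs from -2.37 to -1.84 and Nr4a1 from -2.33 to -1.51, both below 0 throughout, while Nr4a2 (-0.24 to 0.32) and Klf2 probe 1 (-0.77 to 0.15) lie on either side of 0.

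The cofactors, relatives and targets of these factors were counted on the brightest tested probe of each gene: 63 of 72 genes in 7 lists were measured. Of the 63, 9 were higher, 31 were lower and 23 were not called, against 23.8% higher and 21.0% lower among all 17033 genes, whose median difference was 0.08. The lists were chosen with earlier results of these data known, so these shares are descriptive only. With spike-in scaling 8 were higher and 8 lower, against 4453 higher and 1611 lower of all 24207 gene probes. Where a gene was dark in 1 group, setting it at its bound left the list medians as given.

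Of 4 EGR co-regulators and relatives 3 were measured, with 1 lower, none higher and a median of -0.55, which was -0.97 without control replicate 1, -0.12 without control replicate 2, -0.31 without phorone replicate 1 and -0.11 with spike-in scaling. Nab2, a co-repressor that EGR proteins induce, read 0.42 and 1.19 in control and -0.07 and -0.11 with phorone, a difference of -0.90 (SE 0.27, adjusted p = 0.0454). Nab2 lost its call in 7 of 15 alternatives, among them without control replicate 2 (-0.51, adjusted p = 0.0538), without phorone replicate 1 (adjusted p = 0.102) and without phorone replicate 2 (adjusted p = 0.118). Its partner Nab1 was not called (0.15, adjusted p = 0.362). Of 8 EGR targets (Nab2 is in both lists) 7 were measured, with 4 lower, none higher and a median of -0.90. Without control replicate 2 there were 2 lower and a median of -0.51, with spike-in scaling 2 lower and -0.46, and with only probes well above background on all arrays the median was -0.41. Pdgfb, a chain of platelet-derived growth factor, fell by 2.91 (SE 0.13, adjusted p = 0.000361), and its difference was -1.67 with normexp background correction. Ptges, prostaglandin E synthase, was not well above background in the phorone group and was at least 2.29-fold lower there, though with normexp background correction its log2 difference was -0.51.

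Of 3 NR4A partners, the RXR receptors, 2 were measured, with 1 lower and a median of -0.31, which turned to 0.12 with spike-in scaling (0.54 for all probes). Rxra was lower by 0.62 on its brightest probe (adjusted p = 0.0186) but higher by 0.78 on another, and lost its lower call in 5 of 15 alternatives, among them without control replicate 2 (-0.56, adjusted p = 0.0589), without phorone replicate 1 (-0.70, adjusted p = 0.0597) and without phorone replicate 2 (-0.54, adjusted p = 0.130).

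Of 7 SRF cofactors 5 were measured, with 2 higher, 2 lower and a median of -0.17, which turned to 0.26 with spike-in scaling (0.54 for all probes). Without control replicate 2, where Elk1 was also measured, the median of the cofactors was -0.48. None of them was lower without control replicate 1, without phorone replicate 2 or with spike-in scaling. Mkl2, an MRTF coactivator, rose from -2.35 and -2.49 to 0.04 and -0.06, a difference of 2.41 (SE 0.13, adjusted p = 0.000551), and its other probe rose by 2.25. Mkl1, the other MRTF measured, stood at -0.17 on its brightest probe (adjusted p = 0.306), which was not called, and was lower by 0.97 on another. Of the ternary complex factors, Elk4 was not well above background in control and at least 1.29-fold higher with phorone. Its fitted difference, which is no bound, was 2.565 (adjusted p = 0.000574). Without the filter on dim probes its brightest probe was another one, with a difference of 1.22 that was not called (adjusted p = 0.271). Elk3 was lower by 0.62 (adjusted p = 0.0460), with the call lost in 7 of 15 alternatives, among them without control replicate 1 (-0.49), without control replicate 2 (-0.76) and without phorone replicate 2 (-0.44). Elk1 was well above background on 1 control array only and was not tested in the reported processing. Without the filter on dim probes its difference by limma was -1.07 and called lower (adjusted p = 0.0466). Without control replicate 2 the Elk1 difference was -1.23. Fhl2, a LIM protein that binds Srf, was lower by 0.68 (adjusted p = 0.0242), and the call was lost in 5 of 15 alternatives, among them without control replicate 1 (-0.51), without phorone replicate 1 (-0.73) and without phorone replicate 2 (-0.63).

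Of 14 SRF and MRTF targets all were measured, with 9 lower, 2 higher and a median of -0.73 (3 lower and -0.29 with spike-in scaling). Myl9, a myosin light chain, fell by 2.53 (adjusted p = 0.000716) and Acta2, smooth muscle actin, by 2.06 (adjusted p = 0.00246). Cnn1, a calponin, rose by 2.21 (adjusted p = 0.000956, 3 of 4 arrays well above background), or by 1.09 with normexp background correction. Actb, cytoplasmic actin, rose by 1.27 on its 1 tested probe (adjusted p = 0.0188), from 2.01 and 1.21 to 2.93 and 2.82. The Actb call was lost without the filter on dim probes (adjusted p = 0.0665) and without phorone replicate 1 (difference 1.21).

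Of 14 other KLF genes 10 were measured, with 5 lower, 1 higher and a median of -0.52 (1 lower and -0.08 with spike-in scaling). Klf15 fell from -0.50 and -1.03 to -4.36 and -4.95 (difference -3.89, SE 0.28, adjusted p = 0.000925), with 3 of the 4 arrays well above background and -2.21 with normexp background correction. Klf10, a TGF-beta-induced member, fell by 1.43 (adjusted p = 0.0151), a call lost without the filter on dim probes (adjusted p = 0.0565) and with spike-in scaling (adjusted p = 0.0880). Klf5, which promotes growth in many epithelia, rose from -1.30 and -1.16 to 0.80 and 1.06 (difference 2.16, SE 0.15, adjusted p = 0.000896). Of 23 other immediate early genes, all measured, 10 were lower, 4 were higher and the median was -0.45. With spike-in scaling 2 were lower, 3 were higher and the median was -0.02, and 2 were higher without phorone replicate 1 and without phorone replicate 2. Fos fell by 2.05 (adjusted p = 0.00726) and Btg2, an antiproliferative gene, by 1.39 (adjusted p = 0.00384), which was -0.95 and not called with spike-in scaling. Fosl1, a Fos family member, rose by 2.61 (adjusted p = 0.00728) and Maff, a small Maf protein, by 1.61 (adjusted p = 0.00395).

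**Figure D4:**
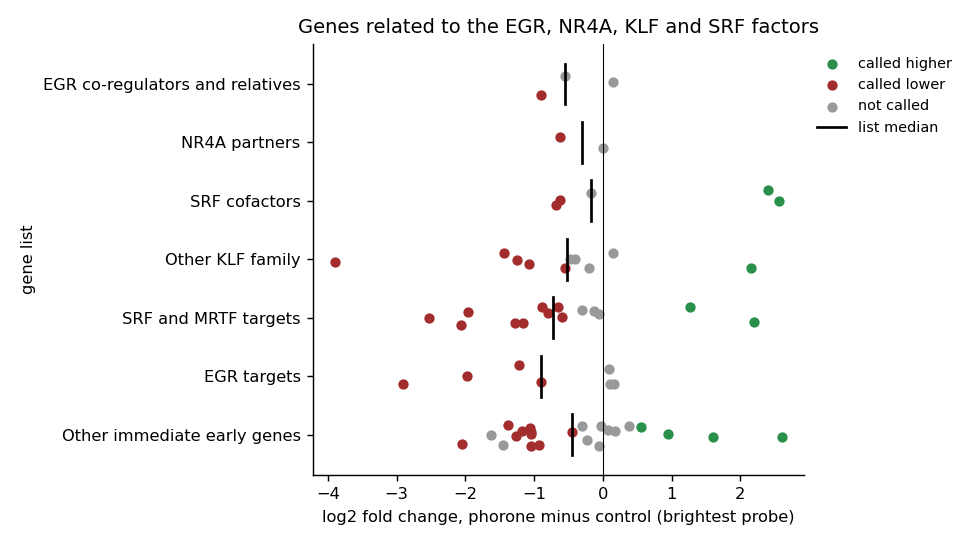
Phorone minus control difference (log2) of each measured gene of the 7 related lists, 1 point per gene, with the median of each list. The median of every list lies below the 0.08 of all genes, and genes above 0 appear in every list except NR4A partners. With spike-in scaling the medians of NR4A partners (0.12) and SRF cofactors (0.26) lie above 0 and below the 0.54 of all probes. Elk4 and Ptges, dark in 1 group, are plotted at fitted values that are no bounds.

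The genes whose pattern over the 4 arrays came closest to a member were sought among 17044 probes, those of the probes well above background on all arrays whose gene has a RefSeq symbol that is not provisional and is no member, by Euclidean distance of log2 levels after subtracting each probe's mean. For Egr1 they were Pdlim4 at 0.0465, Slc44a1 at 0.0537 and Plscr2 at 0.0901. For Nr4a1 they were Ccl5 at 0.149, Cdc42ep5 at 0.16 and Dtx3 at 0.171. For Klf2 probe 1 they were Aldh9a1 at 0.0426, Trib3 at 0.110 and Hs6st3 at 0.127, and for Srf probe 1 Dclk2 at 0.0130, Kif1c at 0.0286 and Zdhhc4 at 0.0302.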

How the data were processed

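Total RNA was labelled with Cy3 and hybridised to 4 one-colour Agilent arrays. The intensity values are processed signals that the authors deposited, written per the file headers by Feature Extraction 10.7.3.1. A value table from the authors, also deposited, is in log2 units. Its values equal the log2 signal minus log2 of the array's 75th percentile within an SD of 0.00548 to 0.0223 per array, so scale and centring are known. It was used as an alternative. Control spots and outlier-flagged spots were left out, spots of a probe averaged, log2 signals centred on the 75th percentile, and probes kept where well above background on both arrays of a group (24207 gene probes). Differences were fitted with limma 3.58.1 in R 4.3.3 (lmFit, eBayes, Benjamini-Hochberg over all probes, 2 residual degrees of freedom). The script was tested on simulated data. Named genes were every member, the called genes with the largest change of each related list (up to 2 each way), Nab1, Nab2, Elk1, Elk3, Elk4, Mkl1 and Mkl2, and the 3 genes nearest to the first measured member of each family. Members and lists were chosen with earlier results of these data known. The number of arrays limits the precision.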

Additional observations from a re-analysis of the deposited data

How the results depend on the processing

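In the reported processing 7 member probes were lower. With spike-in scaling 2 were, and with 1 array left out 4 to 8 were, the 8 including Klf2 probe 1 without control replicate 1. None was higher in any of the 15 alternatives. With the brightest probe of each gene or without the filter on dim probes 5 were lower, and with noncoding probes in the fit 6. Among all probes tested, 4919 of 24207 were lower in the reported processing, 1611 of 24207 with spike-in scaling and 3641 of 40557 without that filter. The labels do not say whether the replicate numbers pair the samples. The correlation of their deviations from the group means was -0.0408, which cannot show how the samples were prepared. With the replicate number as a block 6 member probes were lower, Klf4 losing its call (adjusted p = 0.0574). Of the related genes, 5 were higher without the filter on dim probes and 8 were lower with spike-in scaling; leaving out 1 array gave 6 to 9 higher and 22 to 29 lower. Nr4a2 and Klf2 probe 1 turned to 0.32 and 0.13 with spike-in scaling and ranged from -0.24 to 0.016 and from -0.77 to 0.15 when 1 array was left out. The cause of these changes was not tested. Members at background on every array, Egr3 and Nr4a3, have no measurable difference here.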
